A study of Homo sapiens with 4 samples.

Results

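The regions described here are the places where peaks of RNA 5-methylcytosine crowded on 1 strand in PANC-1, an established cell line from a human pancreatic carcinoma. The cells of all 4 samples had first been exposed to extracellular vesicles of cancer-associated fibroblasts (CAFs), the activated stromal cells of a tumour. There were 2 libraries of RNA bound by an m5C antibody and 2 input libraries without antibody, which make 2 replicates with 1 peak list each. As the labels name no group without vesicles, their effect was not compared, and whether the replicates were separate cultures is not stated.

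The regions were chosen by the number and position of the peaks themselves. Both lists were pooled, and peaks of the same chromosome and strand were linked where the next one began at most 10 kb after the last end. Clusters with 4 or more peaks were kept. A further 2 clusters, with 43 peaks together on chromosomes 19 and 7, were left out by the rule. What remained was 90 clusters with 411 of the 8919 listed peaks (4.61%), 185 of the 3177 in replicate 1 (5.82%) and 226 of the 5742 in replicate 2 (3.94%). Over all peaks the linking gave 6980 clusters, of which 5532 held 1 peak, 1135 held 2 and 221 held 3. Because positions and peak numbers of both lists made the choice, crowding, spans and overlap are given as descriptions and were not tested.

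5-methylcytosine (m5C) is cytosine with a methyl group on its ring. In RNA it is written mainly by the NSUN family of methyltransferases and by TRDMT1, and in messenger RNA it is bound by proteins such as ALYREF, an export adaptor, and YBX1, which has been linked to transcript stability. In m5C MeRIP-seq, RNA is broken into pieces, the pieces that carry the mark are pulled down with an antibody, and a peak marks where they pile up relative to the input. A peak is wider than the methylated base, so several peaks along 1 transcript can come from several marked places or from 1 long region broken into pieces. Genes and sequence are not given, because peaks carry no gene name in the lists and an hg19 reference was not used here. Each cluster is called by its chromosome, strand, start and end, which are hg19 positions counted from 1. A peak or cluster begins at its lower position and ends at its higher one, also on the minus strand. Markers of the cell line were therefore not checked.

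The clusters were small. Of the 90, 59 held 4 peaks, 18 held 5, 8 held 6, 3 held 7 and 2 held 8. Their spans ran from 1.12 kb to 37.96 kb with a median of 11.6 kb, and peaks covered between 0.474% and 79.2% of a span, with a median of 5.96%. Most of the sequence between the outer edges therefore carried no listed peak. Of the 321 links between neighbouring peaks, 55 joined peaks that overlapped. The other 266 bridged gaps with a median of 2849 bp (interquartile range 1252 to 5326 bp, lowest 143 bp). Only 56 of these gaps were under 1 kb and 74 were over 5 kb. The widest gap that was still bridged measured 9950 bp, on chromosome 6 minus (108375771 to 108395525). The narrowest that was not bridged measured 10053 bp, between the cluster on chromosome 12 minus (49432007 to 49449144) and a single peak from 49459198 to 49459214. The number of clusters follows the gap allowed, with 46 at up to 5 kb and 168 at up to 20 kb.

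Both replicates contributed to most clusters. Peaks of both lists were present in 79 of 90 clusters (87.8%), while 6 held replicate 1 peaks only and 5 held replicate 2 peaks only. Replicate 2 had more peaks than replicate 1 in 43 clusters, fewer in 22 and as many in 25. It supplied 55.0% of the clustered peaks, against 64.4% of all peaks. The commonest make-ups were 1 replicate 1 peak with 3 of replicate 2, and 2 of each, with 21 clusters apiece. Crowding within a single list was rare: linked on its own, replicate 1 gave 10 clusters of 4 or more peaks and replicate 2 gave 15, so most of the 90 reached 4 peaks only when the lists were pooled.

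**Figure D1:**
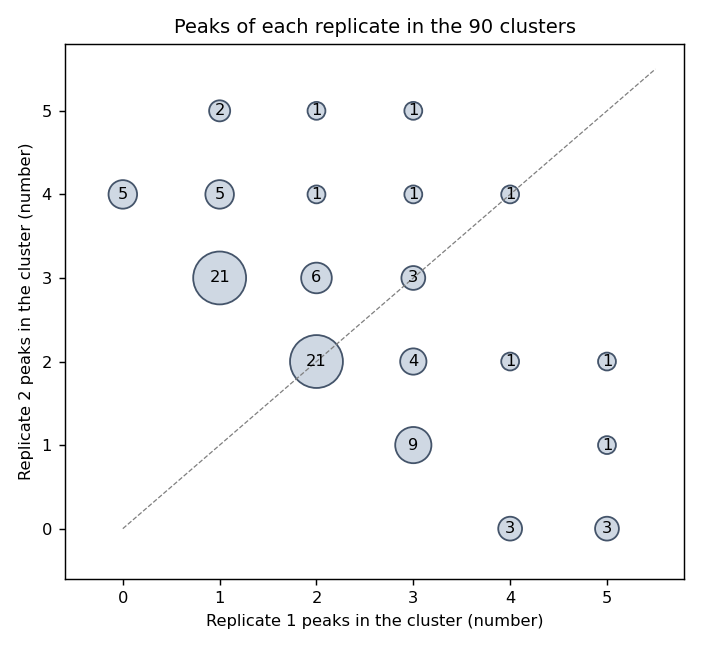
Number of replicate 1 peaks (horizontal axis) and replicate 2 peaks (vertical axis) in each of the 90 clusters; the number in each circle is the number of clusters with that make-up, the circle grows with it, and the dashed line marks equal numbers. The largest circles, of 21 clusters each, are 1 with 3 and 2 with 2, and 11 clusters lie on an axis.

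Overlap of the replicates was more frequent in the clusters than in the lists, and the rule favours it. Among replicate 1 peaks in the clusters, 55 of 185 overlapped a replicate 2 peak by at least 1 bp (29.7%, 95% Wilson interval 23.6 to 36.7), beside 13.6% over the whole list. Among replicate 2 peaks, 53 of 226 did so (23.5%, 18.4 to 29.4), beside 7.49%. An overlapping pair counts as 2 of the 4 peaks. When overlapping peaks were counted as 1 region, 60 of the 90 clusters held 4 or more distinct regions, 24 held 3 and 6 held 2. In those 60 clusters the shares were 12.6% of 127 replicate 1 peaks and 9.94% of 161 replicate 2 peaks. The other clusters fall out because their peaks overlap, so this selection lowers the shares by its construction. Clusters of 3 peaks, just below the threshold, had shares of 30.6% (79 of 258 peaks) and 19.8% (80 of 405). Intervals here cover counting error only, and peaks of 1 cluster are not independent.

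The 55 overlapping pairs lay in 43 clusters, and 36 of the 79 clusters with peaks of both lists had no overlapping pair of listed peaks. Over the whole lists, 13.6% of replicate 1 peaks and 7.49% of replicate 2 peaks overlapped the other list. Peaks left out of the lists could not be checked for overlap. In 32 clusters there was 1 pair, in 10 there were 2 and in 1 there were 3. Both peaks began or ended on the same base in 29 of the 55 pairs (52.7%), beside 52.2% of all 435 pairs. Only 3 pairs were identical at both ends, 15 shared the start alone, 11 the end alone and 26 neither. The replicate 2 peak was the wider in 33 of the 55 pairs, beside 241 of all 435 (55.4%), and the median overlap was 129 bp. Spearman's rho between the scores of the 55 pairs was 0.13, and 0.20 over the 27 pairs whose replicate 1 score lay below 3100. These pairs come from the same libraries, and values as small as these are no finding.

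Scores in the clusters had nearly the same medians as in the whole lists. The score is the value the authors deposited for each peak. Its scale is not stated, so medians and shares are set only beside those of the same list. The limit of 3100 used for both lists comes from replicate 1. In replicate 1 the most frequent score was 3100, and 93 of 185 clustered peaks (50.3%, 43.1 to 57.4) reached it or more, beside 52.1% of the list. The median of the remaining 92 was 744, beside 656 in the list. In replicate 2 the clustered peaks had a median of 282 (95% order-statistic interval 235 to 363) and the whole list 281. A score of 3100 or more was held by 1 of the 226 (0.442%, 0.0780 to 2.46), beside 0.679% of the list. That peak lay on chromosome 6 plus, from 31962729 to 31962752, and overlapped a replicate 1 peak of 3100. As 52.1% of the replicate 1 list reached that value, nothing is read from this. The replicate 2 list was also cut by score into 4 equal parts. The lowest held 30.5% of the clustered peaks, the next 19.5% and 22.1%, and the highest 27.9%. These shares were not tested, and peaks of 1 cluster are not independent. No uneven spread over the range of scores is therefore read from them.

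**Figure D2:**
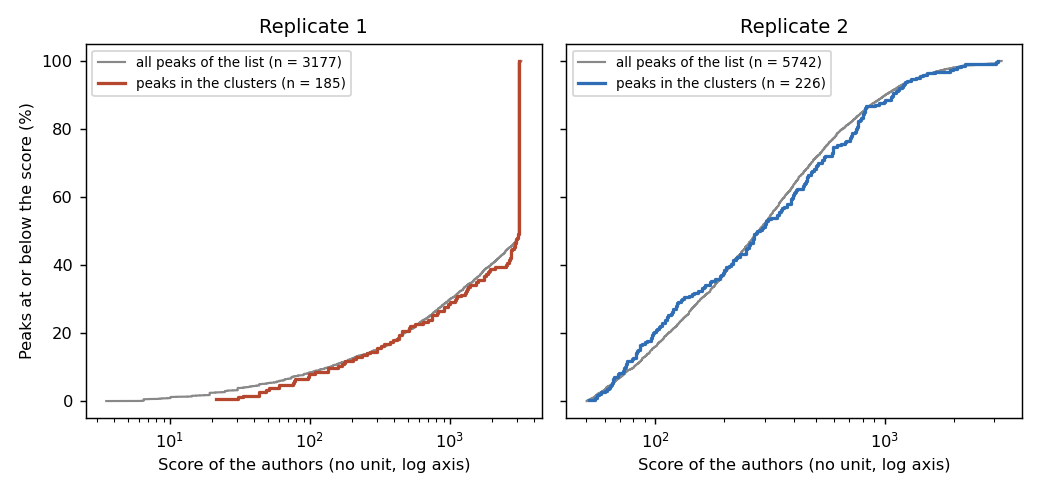
Share of peaks at or below each score (log axis, authors' scale) in replicate 1 (left) and replicate 2 (right), for the clustered peaks (coloured) and all peaks of the list (grey). The coloured line follows the grey one in both lists, with medians of 282 and 281 in replicate 2.

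Some clusters held both high and low scores. Of the 57 clusters with 2 or more replicate 1 peaks, 14 had all of them at 3100 or more, 17 had none and 26 had both kinds. Over the whole replicate 1 list, 52.1% of peaks reached 3100 or more. Of the 74 with 2 or more replicate 2 peaks, 17 had all of them at or above the median of that list, 14 had none and 43 were mixed. The numbers that unrelated peaks would give were not computed. The counts therefore do not show whether scores within a cluster were more alike or more mixed than elsewhere. The highest median of replicate 2 peaks was 1978, on chromosome 22 plus from 38035057 to 38049880. The lowest was 63.8, on chromosome 7 plus from 6187370 to 6194169. The single replicate 1 peak of that second cluster scored 3100, the common high value of its own list. In clusters with 3 or more replicate 2 peaks, the place of the highest score was read among these peaks alone, along the transcript strand. It belonged to the peak nearest the 5′ end in 16 of 46 clusters, nearest the 3′ end in 11 and between in 19. The cluster on chromosome 19 minus from 3015651, where the highest score was tied, is not counted. The numbers that a random order would give were not computed.

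Median widths lay near those of the lists, and very short peaks were more frequent in replicate 1. The median width was 162 bp in replicate 1 (list 167 bp) and 136 bp in replicate 2 (list 141 bp). Peaks under 50 bp made up 37 of 185 in replicate 1 (95% interval 14.9 to 26.3%), beside 13.1% of the list, and 38 of 226 in replicate 2 (16.8%, 12.5 to 22.2), beside 15.6%. Of the 37 short replicate 1 peaks, 14 lay in the 5 clusters with repeated widths other than 200 bp, described further on. Without these clusters the share was 14.1% (23 of 163). As the clusters were picked by their widths after the values were seen, this lower share does not show where the difference lies. A width of exactly 200 bp, the most frequent in both lists, was held by 15 clustered peaks of replicate 1 (8.11%, list 6.11%) and 4 of replicate 2 (1.77%, list 1.88%).

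Chromosomes 19 and 17 held the most clusters. There were 17 on chromosome 19 and 12 on chromosome 17, with 19.7% and 13.1% of the clustered peaks, beside 8.25% and 6.21% of all peaks. Chromosome 1 followed with 10 clusters, and its share of 11.9% was near its 10.4% of all peaks. Of the 100 peaks on chromosome 21, 13 were in clusters, as were 81 of 736 on chromosome 19 and 25 of 245 on chromosome 22 (10.2%). On chromosome 3 the share was 0.964%, and chromosomes 9 and Y held no cluster although chromosome 9 had 360 peaks. How densely each chromosome is transcribed was not taken into account. The plus strand held 52 clusters and the minus strand 38, with 56.9% of clustered peaks on the plus strand beside 51.4% of all peaks.

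**Figure D3:**
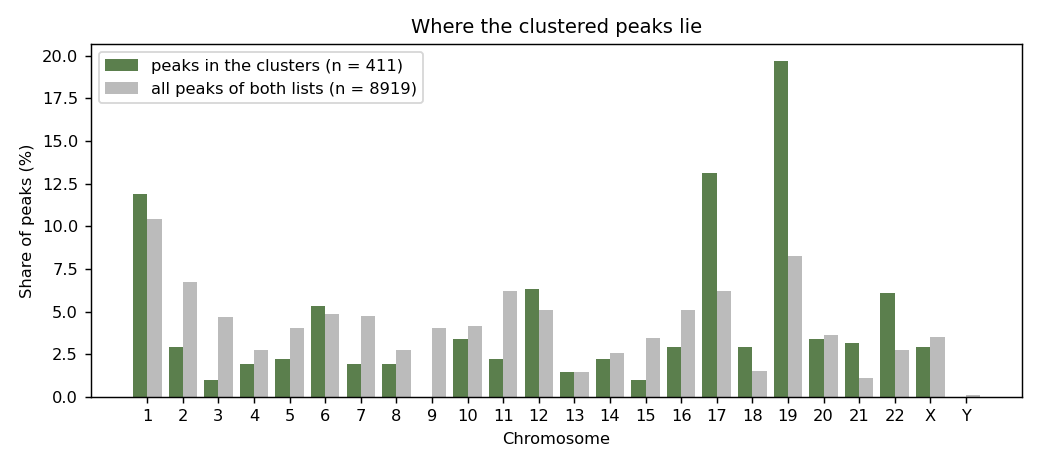
Share of the 411 clustered peaks (green) and of all 8919 peaks (grey) on each chromosome, in percent; bars start at 0. Chromosome 19 holds 19.7% of the clustered peaks and 8.25% of all peaks, and chromosomes 9 and Y have no green bar.

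The 13 clusters of 6 to 8 peaks spanned 4.36 to 37.96 kb, and each drew on both replicates. The cluster on chromosome 18 minus (44542761 to 44559776) held 4 peaks of each replicate and 3 overlapping pairs, more pairs than any other of the 90. Its replicate 1 scores were 2898, 3100, 3100 and 3100, and its replicate 2 scores were 592, 356, 2157 and 674. The replicate 2 peak of 2157, 894 bp wide, was the only one of that list without a replicate 1 partner there. The other cluster of 8, on chromosome 19 plus (36207770 to 36228164), held 3 and 5 peaks and 1 pair. Its replicate 1 scores were 3100, 3100 and 513. Its replicate 2 scores were 363, 549, 75.4, 91.8 and 68.6, so 3 of 5 were under 100. The 549 belonged to a peak of 1879 bp, the widest in all the clusters. The only pair was identical at both ends, 280 bp wide, with 513 in replicate 1 and 75.4 in replicate 2.

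Of the clusters with 7 peaks, the densest lay on chromosome 1 minus (152186003 to 152190360), with 5 replicate 1 and 2 replicate 2 peaks inside 4.36 kb. Its replicate 1 scores were 3100 in 3 peaks, 2746 and 108, and its replicate 2 scores were 173 and 764. The replicate 1 peaks were all between 200 and 227 bp wide. On chromosome 17 plus (1630292 to 1641893) replicate 2 led with 5 peaks against 2. Replicate 2 scores there ran from 63.4 to 301 with a median of 119, and the replicate 1 scores were 75.3 and 3100. Of the replicate 2 scores there, 4 of 5 lay below the median of that list. On chromosome 22 minus (37891524 to 37908248), 3 replicate 1 peaks (3100, 3100 and 1754) stood with 4 of replicate 2 (191, 96.7, 779 and 441). The pair there began on the same base, 13.01 kb into the cluster.

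Among the 8 clusters of 6 peaks, 6 had no overlapping pair of listed peaks. On chromosome 22 plus (38035057 to 38049880) the listed peaks of each replicate kept to their own side of the cluster. All 3 replicate 1 peaks, with scores of 43.4, 43.4 and 3100, began within the first 6.32 kb from the start. The 3 replicate 2 peaks, with 1978, 2069 and 305, came after 8.23 kb. On chromosome 19 plus (14023361 to 14040473) and on chromosome 19 minus (46329484 to 46347458), 1 replicate 1 peak of 3100 stood with 5 of replicate 2. Those 5 scored 110 to 813 on the plus strand and 86.0 to 258 on the minus strand. The cluster on chromosome 1 plus (1447679 to 1463242) held 4 replicate 2 peaks of 340 to 596 and 2 replicate 1 peaks of 3100, the nearest of different lists beginning 7.84 and 8.25 kb from the cluster start.

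On chromosome 20 minus (17596084 to 17606247) all 3 replicate 1 peaks scored 3100 and the replicate 2 peaks 1090, 392 and 1655, all above the median of their list or equal to it. Its 1 pair began on the same base. On chromosome 17 plus (41142946 to 41152119) no replicate 1 peak reached 3100: its scores were 169, 51.1 and 908, and those of replicate 2 were 235, 823 and 2238. It had 2 pairs, and in the stronger one, with 908 and 2238, the peaks ended on the same base. The remaining clusters of 6, on chromosomes 13 plus and 1 plus, had peaks of repeated width and are taken up with the other clusters of that kind.

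**Figure D4:**
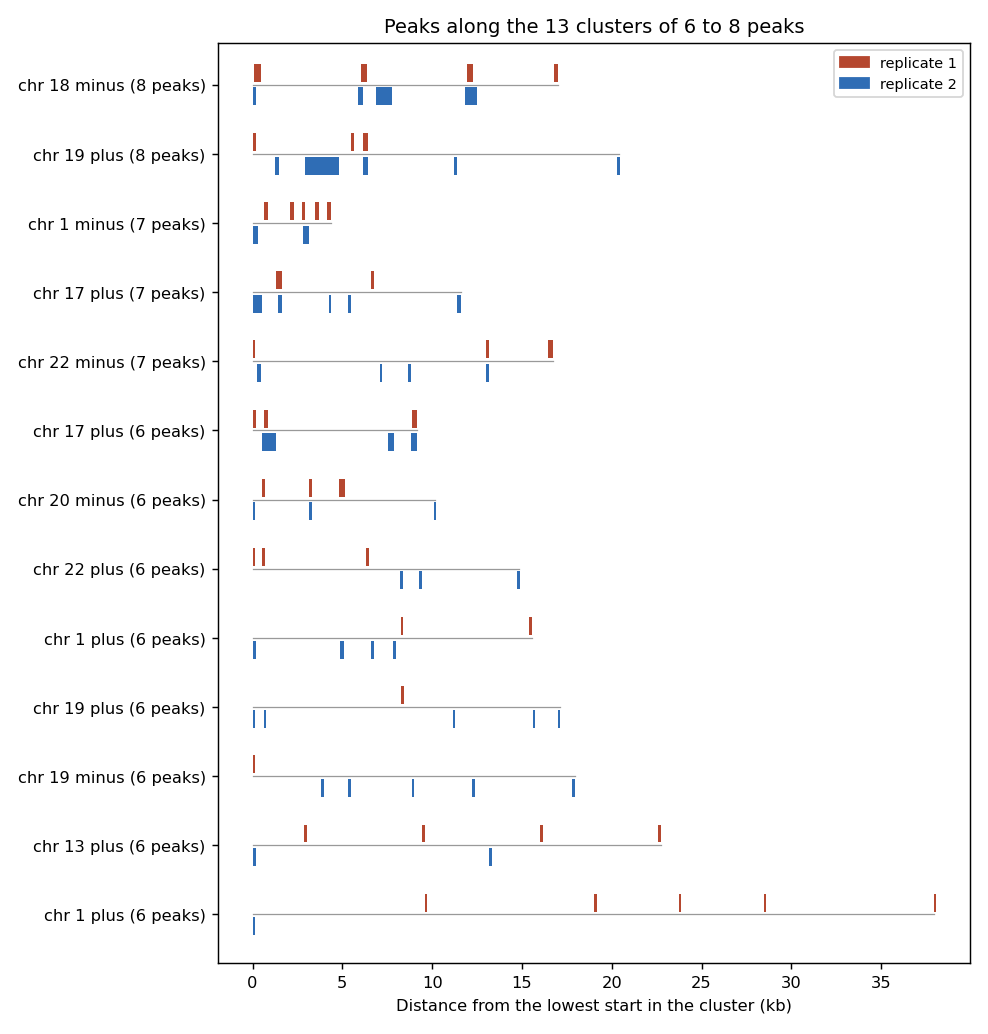
Peaks of replicate 1 (red, above each line) and replicate 2 (blue, below) along the 13 clusters of 6 to 8 peaks, by distance in kb from the lowest start of the cluster; peaks are drawn to scale but at least 0.15 kb wide. Red and blue stand at the same place 3 times in the chromosome 18 cluster and nowhere in 6 of the clusters.

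In 5 clusters, 2 or more peaks of 1 list had exactly the same width other than the common 200 bp, and in 3 of these clusters their distances were nearly constant. Equal peaks of 200 bp, left out here, occurred in 2 further clusters, with 3 replicate 1 peaks on chromosome 1 minus from 152186003 and 2 on chromosome 17 plus from 41142946. The most exact was on chromosome 10 plus (124355104 to 124374822), a cluster of 5 replicate 1 peaks with none of replicate 2. After a first peak of 39 bp came 4 peaks of 30 bp whose starts were 4059 bp apart each time. Their scores were 3100, 3100, 3100 and 2738. Only 12 of the 3177 replicate 1 peaks were 30 bp wide, and these 4 were among them.

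On chromosome 1 plus (145318054 to 145356009) all 5 replicate 1 peaks were 34 bp wide, with starts 9436, 4720, 4724 and 9464 bp apart, so that the outer distances were 2 times 4718 and 4732 bp. Their scores were 818, 1522, 1000, 969 and 417, none of them at 3100, and the only replicate 2 peak was 10 bp wide and stood alone at the start. This was the longest and most sparsely covered cluster. The width of 34 bp returned on chromosome 1 minus (148005471 to 148014114), in a cluster of 4 replicate 1 peaks with none of replicate 2. There 2 peaks of 41 bp were 6277 bp apart and 2 of 34 bp were 6281 bp apart. The scores were 21.2, 98.6, 33.4 and 236, all in the low part of that list, and the lowest was also the lowest of any clustered replicate 1 peak. Of the 18 replicate 1 peaks of 34 bp, 9 lay in clusters, beside 5.82% of all replicate 1 peaks. These 9 include the 5 and the 2 just described, in clusters picked for their repeated widths, so the count partly restates that choice.

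On chromosome 13 plus (57715056 to 57737787) the 4 replicate 1 peaks were 131 bp wide and 6570, 6573 and 6571 bp apart. The 2 replicate 2 peaks were 210 bp wide and 13143 bp apart, to the base the distance between the first and the third replicate 1 peak, and each was followed 2887 bp later by a replicate 1 peak. Peaks of equal width did not score equally. The replicate 1 scores were 3100, 3065, 77.9 and 3100, and the replicate 2 scores 533 and 1363. On chromosome 18 minus, the cluster of 8 peaks, 3 replicate 1 peaks were 356 bp wide with starts 5927 and 5915 bp apart. The 3 replicate 2 peaks that overlapped them had starts at positions 105, 135 and 135 bp lower, which is toward the 3′ side on this strand. They differed in width (200, 230 and 691 bp). These 5 clusters were singled out after their values were seen. How reads that match several places were assigned is not given in the sources used here, and repeated sequence was not tested.

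**Figure D5:**
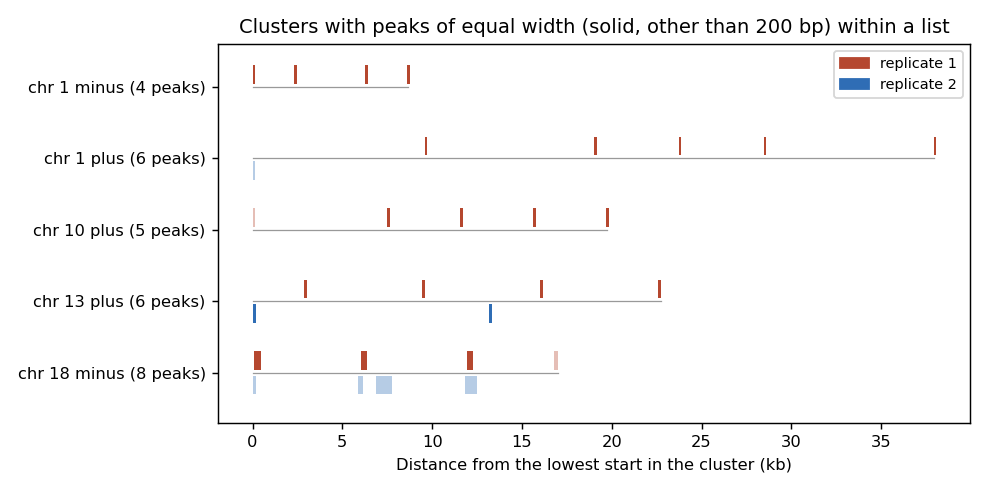
The 5 clusters with peaks of equal width within a list, the common width of 200 bp left out, by distance in kb from the lowest start; solid bars are peaks that share their width, pale bars the other peaks, red replicate 1 and blue replicate 2, drawn at least 0.15 kb wide. The even steps of 4059 bp on chromosome 10 and of 6570 to 6573 bp on chromosome 13 stand out.

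On opposite strands of chromosome 17, 2 clusters of 4 peaks each held 1 overlapping pair of the same widths. The clusters lay 44.1 kb apart, on the plus strand from 36285966 to 36294254 and on the minus strand from 36338372 to 36347835. Both contained a replicate 1 peak of 165 bp with a score of 3100 inside a replicate 2 peak of 223 bp, which scored 1421 on the plus strand and 1187 on the minus strand. The peaks shared their 5′ edge in both clusters, at 36294032 on the plus strand and at 36338594 on the minus strand. The remaining peaks differed: the plus strand had a replicate 1 peak of 223 bp (3100) and a replicate 2 peak of 110 bp (102), and the minus strand had a second pair of 124 bp (3100) and 211 bp (1090). This pair of clusters, too, was chosen after its values were seen.

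The 11 clusters of a single list spanned 5.78 to 19.7 kb. Besides those on chromosomes 10 plus and 1 minus, replicate 1 alone marked 4 places. On chromosome 14 minus (105406168 to 105418539) 5 peaks scored 454, 3100, 3100, 158 and 740 and covered 14.9% of the span. On chromosome 17 minus (73645870 to 73658739) 5 peaks scored only 30.5 to 741, with 2 of them under 50. The clusters on chromosome 10 minus (105357169 to 105365674) and chromosome 19 plus (39911266 to 39917042) had 4 peaks each, of 60.1 to 1939 and of 1113 to 3122. The last value was the highest score of any clustered replicate 1 peak.

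Replicate 2 alone marked 5 places, each with 4 peaks. On chromosome 17 minus (40852534 to 40865407) the scores were 304, 739, 533 and 1150, all above the median of that list. On chromosome 16 plus (1719111 to 1728357) they were 1469, 446, 295 and 392, again all above it. Those on chromosome 11 plus (1252653 to 1270290), at 764, 1000, 173 and 87.4, and on chromosome 2 minus (121995378 to 122006573), at 73.9, 218, 672 and 346, were mixed. On chromosome 19 plus (1068717 to 1080383) all 4 lay below the median, from 55.7 to 248. A cluster of 1 list was thus neither regularly weak nor regularly strong, and absence from the other list does not show absence of the mark, since depth is unknown.

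The 18 clusters of 5 peaks spanned 3.90 to 22.5 kb, with a median of 14.4 kb. Besides the 3 of replicate 1 alone, all held both replicates. On chromosome 19 minus (40728224 to 40732597) 3 replicate 1 peaks of 3100 and replicate 2 peaks of 994 and 758 formed 2 pairs within 4.37 kb, and the replicate 2 median of 876 was the highest among the clusters of 5. Chromosome 11 minus (64532845 to 64545938) and chromosome 21 minus (33974587 to 33982312) also had 2 pairs. Their replicate 1 scores were 1799, 1885 and 391 on chromosome 11 and 3100 and 2741 on chromosome 21. Replicate 2 scored 416 and 140 on chromosome 11 and 218, 290 and 286 on chromosome 21. On chromosome 5 minus (1085347 to 1089243), the shortest of the 18, both replicate 1 peaks scored 3100 while the 3 of replicate 2 scored 60.4 to 95.3.

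In 5 clusters of 5 peaks, 1 replicate 1 peak stood with 4 of replicate 2. They lay on chromosome 1 plus (12313779 to 12336276, the longest, and 150913876 to 150931823), chromosome 10 plus (73039578 to 73055717), chromosome 12 minus (49432007 to 49449144) and chromosome 19 minus (3015651 to 3029199). The median of their replicate 2 scores ran from 224 to 553, and the lone replicate 1 peak scored 300 on chromosome 10 and 2912 or more in the others. Further clusters of 5 lay on chromosome 12 plus (49209457 to 49218156), chromosome 6 plus (31950495 to 31962752 and 44104086 to 44123071) and chromosome 19 minus (4538473 to 4554488, 12810682 to 12826352 and 18979870 to 18995076). The first of the chromosome 6 clusters contained the place where both replicates scored 3100, in peaks of 18 and 24 bp that began on the same base. On chromosome 19 minus from 18979870, the replicate 1 scores were both 3100 and the replicate 2 scores 409, 68.6 and 62.6.

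Among the 59 clusters of 4 peaks, 32 had no overlapping pair, 21 had 1 and 6 had 2. These 6 were the most compact in number of places, with 2 distinct regions each. The shortest lay on chromosome 5 plus (179192622 to 179193742), where 4 peaks covered 79.2% of 1.12 kb with replicate 1 scores of 1543 and 2088 and replicate 2 scores of 505 and 456. On chromosome 12 plus (9083339 to 9085221) the replicate 1 peaks scored 3100 and 3100 and the replicate 2 peaks 375 and 462, in 2 pairs with a common edge each. On chromosome 1 plus (43159161 to 43162615) both pairs began on the same base. The scores were 697 and 256 in replicate 1 and 1244 and 267 in replicate 2, and the first pair was the same 34 bp in both lists.

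The others with 2 pairs were on chromosome 7 minus (5540119 to 5545261; 2781 and 3100 in replicate 1, 199 and 58.2 in replicate 2), chromosome 19 plus (42580290 to 42584541; 2570 and 2978, 3047 and 269) and chromosome 17 minus, given above. On chromosome 19 plus a replicate 2 peak of 1155 bp spanned both replicate 1 peaks, of 201 and 205 bp. The longest cluster of 4, with 21.1 kb, lay on chromosome 4 plus (2824662 to 2845751) and had no pair.

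The other readouts are given by cluster size for comparison. In clusters of 4, 5 and 6 to 8 peaks, replicate 1 peaks reached 3100 or more in 48.0%, 52.3% and 53.8% of cases, and in 60.9% in clusters of 3. The replicate 2 medians were 261, 288 and 377, and 325 in clusters of 3. Overlap with the other list was 32.4%, 27.3% and 25.6% for replicate 1 peaks and 23.1%, 26.1% and 21.7% for replicate 2 peaks, so the lists did not follow the same order of sizes. As no value of a peak is replicated within a list, none of these differences has a test.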

How the data were processed

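Antibody-bound and input RNA of each replicate gave 1 peak list, per the labels. The tool cutadapt 1.9.3 and the build hg19 are named in the submitters' processing notes, and peak names begin with MACS, per the files. Not given in the sources used here are the aligner, the thresholds, how reads with several matches were handled and how a peak got its strand. Each can alter the number of peaks and their spacing. The score of each peak was deposited by the authors, with no stated scale. No counts are held, so depth is unknown.

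Clusters were built in Python 3.11.15 (numpy 2.4.6, pandas 2.3.3, scipy 1.17.1) and gave the same groups as bedtools 2.31.1; the linking was tested on simulated data. Starts were read as 0-based. Shares have Wilson intervals and medians order-statistic intervals, at 95%. Members and comparisons were chosen with earlier results of these data known. Named are all clusters of 5 or more peaks, those of 4 with 2 or more pairs or from 1 list, and those with extreme values or repeated widths. Genes, transcript regions and sequence, planned for an hg19 reference, were left out. Alternatives were the linking gap, strand, size threshold, score, width and overlap limits, equal list lengths and each list alone.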

Additional observations from a re-analysis of the deposited data

How the results depend on the processing

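Of 120 values recomputed under 12 settings, 78 moved by less than 1.5 times (numbers) or stayed within the 95% interval (shares and medians), among them the share of clusters with both replicates in all 9 settings that give one. The number of clusters and of clustered peaks in replicates 1 and 2, 90, 185 and 226, became 46, 93 and 111 with gaps up to 5 kb, 168, 340 and 464 with gaps up to 20 kb, 31, 83 and 92 with 5 or more peaks, 20, 36 and 52 with peaks in the upper 50% of scores only, 57, 114 and 143 with peaks of 50 bp or more, and 43, 109 and 88 with lists of equal length. With 1 list left out, clusters numbered 10 to 15, with 45 peaks in replicate 1 alone and 63 in replicate 2 alone. Overlap shares of replicates 1 and 2 were 38.7% and 30.6% with gaps up to 5 kb, 12.6% and 9.94% with 4 or more distinct regions and 14.6% and 11.9% with 50% reciprocal overlap, and 31.8% in replicate 2 with equal lengths. The replicate 2 median score rose to 547 with equal lengths and 568 with the score filter. Both settings keep the higher-scoring peaks of that list, so these rises follow from the settings. The replicate 1 median was 1341 without replicate 2. With the score filter the share at 3100 or more was 100% in replicate 1. This was fixed in advance, as the median of that list is 3100. Without replicate 2 that share was 35.6%. In replicate 2 the share was 0% with the score filter, with equal lengths, with 50 bp or more and without replicate 1. Median widths became 124 and 114 bp with the score filter, 181 bp in replicate 2 with 50 bp or more and 116 bp there without replicate 1. Each setting changes which peaks or links enter by its construction, and a limit on score or width also shifts the medians of that value. Beyond this, the cause was not tested. No paired analysis was possible because each replicate's antibody and input libraries were joined in 1 peak list. Share and overlap of both lists have no value with 1 list left out. Depth is unknown and limits every statement on absent peaks.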

Other observations

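No peak of the opposite strand lay inside any of the 90 clusters. Within 10 kb of a clustered peak, 6 of 411 (1.46%) had an opposite-strand peak, beside 278 of all 8919 peaks (3.12%), and in neither set did peaks of opposite strands overlap. The strand assignment of peaks was not tested.

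Peak names are numbered by position, which shows how many numbered peaks were left out of the lists. The first and last listed peak of a cluster are listed by the rule, so only the numbers between them are counted. In replicate 1, 43 of 76 such numbers (56.6%) were listed in the clusters, and in replicate 2, 68 of 194 (35.1%). In clusters of 3 peaks the shares were 44.8% of 29 and 27.6% of 199. Over the lists as a whole they were at most 8.85% and 4.63%. The clusters were chosen for listed peaks lying close together, which raises this share by itself. In 40 of 57 clusters with 2 or more replicate 1 peaks the numbers were consecutive, so no numbered peak of that list lay between the listed ones. In replicate 2 this held for 18 of 74. Smaller clusters had consecutive numbers more often. In clusters of 3 peaks they occurred in 63 of 79 for replicate 1 and 70 of 142 for replicate 2. In clusters of 2 peaks they occurred in 156 of 173 and 288 of 430. These differences were not tested.

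Exact scores recurred. In replicate 2 the 5742 peaks had 4105 distinct scores, and 31.0% of clustered peaks shared theirs with another peak of the list, beside 39.2% of all peaks. The values 173.47 and 764.31 both occurred in the clusters on chromosome 1 minus (152186003 to 152190360) and chromosome 11 plus (1252653 to 1270290). Within the cluster on chromosome 19 minus from 3015651 to 3029199, 2 replicate 2 peaks had the same score of 701.61. The same occurred on chromosome 21 plus from 42778671 (751.67) and on chromosome 22 minus from 38503859 (544.86). In replicate 1, where many peaks scored 3100, 57.8% of clustered peaks shared their score, beside 68.3% of all peaks. Apart from 3100, the score of 43.42 recurred within the cluster on chromosome 22 plus from 38035057.

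On the same strand, 2 pairs of clusters lay within 100 kb of each other. The nearer pair was on chromosome X minus, from 53578227 to 53591584 and from 53616697 to 53619588, with 25.1 kb between them. None of their 5 replicate 1 peaks reached 3100, with scores of 270 to 1311, and the 3 replicate 2 peaks scored 105 to 712. The other pair was on chromosome 19 plus, with 38.6 kb between the replicate 1 cluster that ended at 39917042 and a cluster from 39955686 to 39972673. The latter held replicate 1 peaks of 2647, 135 and 3100 and a replicate 2 peak of 79.1, none of which overlapped.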
